A study of Mus musculus with 4 samples.

Results

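Metallothioneins are small, cysteine-rich proteins that bind zinc and copper inside the cell, and their genes Mt1 and Mt2 are switched on by zinc through the sensor MTF1 and by glucocorticoid hormones (GCs), as well as by stress and inflammation. Cells take up zinc through transporters of the SLC39A (ZIP) family, here Slc39a8 (ZIP8) and Slc39a14 (ZIP14), which also carry manganese and iron, and they export zinc from the cytosol through Slc30a1 (ZnT1), another gene that MTF1 controls. These 5 genes, chosen by name among 32285 gene symbols, were described in every cell class of a mouse fracture callus and of mouse trabecular bone, with and without GC. The callus is a tissue of cartilage, young bone and invading marrow cells. Cells of the trabecular preparation include the marrow cells lodged between the bone plates.

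The series holds 4 single-cell RNA-seq libraries, 1 from the callus and 1 from the trabecular bone of control mice, and the same from GC mice. All came from male C57BL/6J mice, 20 weeks old, and were collected at week 2. The GC mice received the synthetic glucocorticoid prednisolone at 6.25 mg/kg/d, and the controls a placebo. Per the labels both were slow-release pellets placed under the skin, whereas the study's text describes injections in its fracture experiments. How many mice entered each library was not given in the sources used here. With 1 library per condition, no difference below was tested between conditions: each level is a count of unique transcripts (UMIs) per 1000000 UMIs of the same cells (CPM), and each interval is a 95% interval that covers counting error only, never the spread between mice.

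After filtering, 6683, 6890, 3747 and 4592 cells remained for callus without and with GC and for trabecular bone without and with GC, with median depths of 4250, 3288, 6369 and 5608 UMIs per cell. Between 6 and 10 cell barcodes were shared by each pair of libraries. The callus label fitted the markers: 42.0% of control and 46.1% of GC callus cells fell in cartilage, bone or stromal classes. The trabecular libraries were almost wholly marrow cells: 0.454% and 0.958% of their cells (17 and 44 cells) were stromal-like, no cluster was osteoblast- or osteoclast-like, and the summed level of 11 chondrocyte markers was 3.43 and 6.15 CPM against 67783 and 45088 CPM in callus. Cell classes were rebuilt from marker genes, by a naming rule chosen once the clusters were known, with the members held out of the clustering, and are called "-like" for that reason. Unnamed clusters, 6.73% to 11.1% of the cells of a library, are called by their number and leading genes. The GC response genes Tsc22d3 and Fkbp5 stood at 104 and 19.7 CPM in control callus, 119 and 31.4 in GC callus, and in trabecular bone at 75.9 and 16.1 CPM in control and 167 and 60.1 with GC.

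Mt1 (ENSMUSG00000031765, GRCm38 chr8:94179082-94180327, plus strand) and Mt2 (ENSMUSG00000031762, chr8:94172664-94173568, plus strand) are protein-coding neighbours, with 5513 bases between them. Slc39a8 (ENSMUSG00000053897) lies at chr3:135825279-135888572 on the plus strand, Slc39a14 (ENSMUSG00000022094) at chr14:70303469-70351425 on the minus strand, and Slc30a1 (ENSMUSG00000037434) at chr1:191906767-191913247 on the plus strand. MTF1 binds short metal-responsive elements in the promoters of its targets. For this reason the 250 bases before the RefSeq start of Mt1, Mt2 and Slc30a1 are shown here. Those of Slc39a8 are shown only at the RefSeq start that held a match. All are from RefSeq on GRCm38.p6. Capitals mark each match to TGCACNC or TGCGCNC, the core of such an element, on either strand. For a match on the minus strand they spell its reverse complement.
Mt1, chr8:94178839-94179088 (+): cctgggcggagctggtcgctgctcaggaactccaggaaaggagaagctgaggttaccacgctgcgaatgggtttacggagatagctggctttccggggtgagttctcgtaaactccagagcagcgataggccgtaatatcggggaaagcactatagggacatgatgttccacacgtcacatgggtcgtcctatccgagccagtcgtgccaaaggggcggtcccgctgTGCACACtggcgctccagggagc
Mt2, chr8:94172368-94172617 (+): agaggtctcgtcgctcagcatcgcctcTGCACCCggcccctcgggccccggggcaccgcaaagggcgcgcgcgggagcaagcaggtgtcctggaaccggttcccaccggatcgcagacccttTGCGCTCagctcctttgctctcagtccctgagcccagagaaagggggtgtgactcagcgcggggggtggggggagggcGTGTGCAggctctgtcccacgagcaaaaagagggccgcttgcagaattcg
Slc30a1, chr1:191906531-191906780 (+): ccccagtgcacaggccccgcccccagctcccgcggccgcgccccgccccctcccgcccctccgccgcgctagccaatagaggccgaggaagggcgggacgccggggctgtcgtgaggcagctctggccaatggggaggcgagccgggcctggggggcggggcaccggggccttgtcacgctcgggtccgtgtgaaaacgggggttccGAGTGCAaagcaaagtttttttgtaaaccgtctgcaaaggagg
Slc39a8 at its second RefSeq start, chr3:135825407-135825656 (+): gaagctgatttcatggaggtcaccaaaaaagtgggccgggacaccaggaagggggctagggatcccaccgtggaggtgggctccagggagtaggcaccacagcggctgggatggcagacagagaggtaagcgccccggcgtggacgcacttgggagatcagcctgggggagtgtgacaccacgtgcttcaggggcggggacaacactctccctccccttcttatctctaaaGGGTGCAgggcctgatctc

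Counted over the whole window of 300 bases, which adds 50 bases after the start, the core was found 3 times at Mt1, 4 times at Mt2 and 2 times at Slc30a1. Slc39a8 had 0 matches at one of its RefSeq starts and 1 at the other, and Slc39a14 had no entry. Of all 32851 mouse promoter windows of this length, 25.7% held at least 1 match, 7.11% at least 2, 1.97% at least 3 and 0.517% at least 4. The glucocorticoid receptor motif, AGAACA and its reverse complement TGTTCT with 3 bases between, was in 3 of all windows and in none of the members'. Its arm AGAACA alone, held on either strand by 19.0% of all windows, was also in none of theirs. These are matches of letters within a window, not sites. Gene models of Mt1 in GENCODE M21 start at 94179082, 94179211 and 94179241, so that the window ends before the sequence next to the later starts.

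Over all cells of a library, Mt1 and Mt2 were higher in callus than in trabecular bone, and higher with GC in both tissues. Mt1 stood at 929.9 CPM in control callus, 1215 in GC callus, in trabecular bone at 118 in control and 252 with GC. Mt2 stood at 283, 356, 21.4 and 37.8 CPM in the same order. The GC over control ratio of Mt1 was 1.31 (1.29 to 1.32) in callus and 2.14 (2.06 to 2.22) in trabecular bone, and that of Mt2 was 1.26 (1.24 to 1.28) and 1.76 (1.61 to 1.93). Over all cells both genes were thus higher with GC in both tissues, by a larger factor in the trabecular libraries. The libraries also differed in the cells they held. Medians over classes are therefore given too, but the classes with enough UMIs differed between tissues and between genes. The tissues are for that reason not ranked by them. The median class difference of log2(CPM + 5) was 0.79 over 18 callus classes and 0.90 over 11 trabecular classes for Mt1. For Mt2 it was 0.54 over 13 callus classes and 0.43 over 4 trabecular classes.

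The transporters followed other patterns, and the importer Slc39a14 was the member that set the tissues furthest apart. Slc39a14 stood at 266 CPM in control callus and 204 in GC callus, but at 3.58 and 4.31 CPM in the trabecular libraries, a callus over trabecular ratio of 74.3 (62.1 to 89.7) in control and 47.4 (40.5 to 55.8) in GC. It was lower with GC in callus, with a ratio of 0.767 (0.75 to 0.785), and its trabecular ratio was 1.20 (0.943 to 1.54). Slc30a1, the exporter, stood at 14.4 CPM in control callus, 25.1 in GC callus, and in trabecular bone at 7.85 in control and 7.34 with GC. Its GC over control ratio was 1.74 (1.61 to 1.88) in callus and 0.936 (0.787 to 1.11) in trabecular bone, so that only in callus did the interval leave 1. Slc39a8 was low in every library, at 6.86, 6.32, 3.73 and 3.09 CPM in the 4 libraries, and both of its ratios, 0.921 (0.803 to 1.06) in callus and 0.828 (0.637 to 1.08) in trabecular bone, had intervals that hold 1.

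These differences were set against those of all genes. A gene was counted as past 2-fold when the difference of log2(CPM + 5) was at least 1 between GC and control, among genes with at least 50 UMIs over both libraries. In callus 0.251% of 15128 genes were past 2-fold higher and 0.284% past 2-fold lower, and none of the 5 members was among them. In trabecular bone 0.471% of 12110 genes were past 2-fold higher and 0.57% past 2-fold lower, and 1 member, Mt1, was past 2-fold higher. Its log2 difference of 1.07 was under 1 with a pseudocount of 20 CPM (0.98), with only barcodes above the UMI cutoff of cell calling (0.72) and without the named neutrophils (0.70). Ranked by that difference, 0.330% of the trabecular genes lay above Mt1 and 1.02% above Mt2. In callus 1.33% of the genes lay above Slc30a1, 6.52% above Mt1, 9.17% above Mt2 and 95.5% above Slc39a14.

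**Figure D1:**
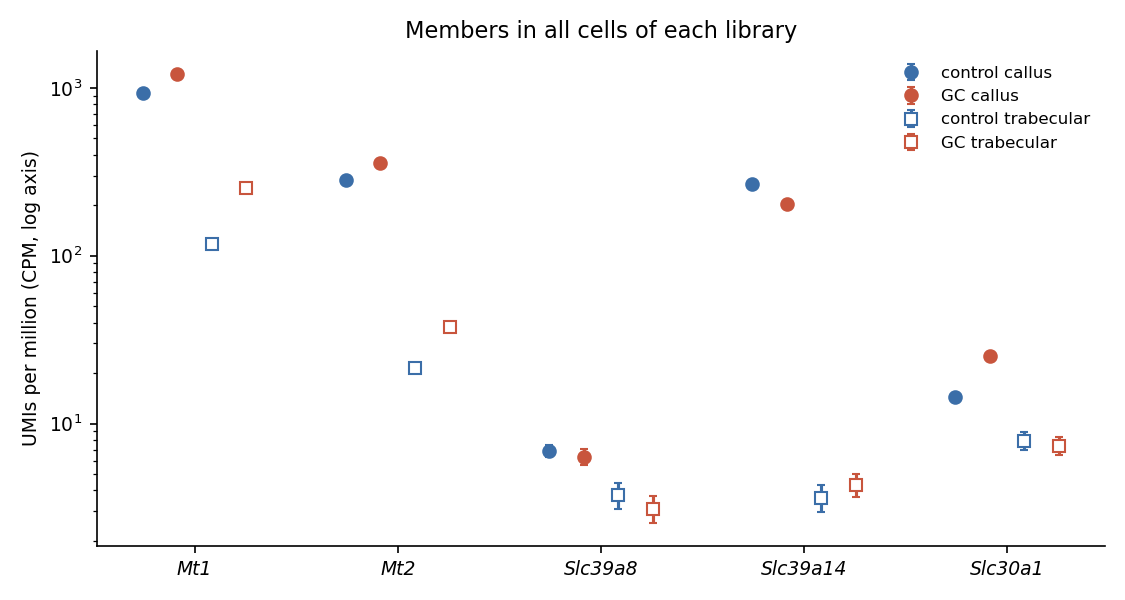
Level of each member over all cells of each library, in CPM on a log axis, with circles for callus, squares for trabecular bone, blue for control, red for GC, and bars for the 95% counting interval. Mt1 and Mt2 are higher with GC in both tissues, and Slc39a14 stands above 200 CPM in callus and below 5 in trabecular bone.

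Free RNA has to be read beside these levels. In barcodes that held no cell, Mt1 stood at 1090.0 CPM in control callus, and in trabecular bone at 92.4 in control and 456 with GC, and Mt2 at 319, 25.8 and 132 CPM. The GC callus file lists only barcodes with at least 500 UMIs, so that no such level could be had there. B cells, a class in which these genes should be low, serve as a comparison level: Mt1 stood at 98.2 CPM in B cell-like cells of control callus, 79.6 in those of GC callus and 30.9 in those of control trabecular bone, and 0 UMIs were found in the 16 B cell-like cells of GC trabecular bone, which allows up to 60.2 CPM. T cell-like cells had 128, 124, 0 and 25.0 CPM in the 4 libraries, where 0 UMIs allow up to 9.72 CPM. B and T cell-like cells of callus thus had no higher Mt1 level with GC. With every cell thinned to 1000 UMIs, an Mt1 UMI was held by 27.7% of callus cells in control and 37.0% with GC, and by 4.52% and 9.67% of trabecular cells (54.8%, 58.5%, 15.6% and 22.7% before thinning, with 434, 707, 76 and 94 shallower cells left out). In B cell-like cells the thinned share was 8.67% in control callus and 4.02% in GC callus, at median depths of 1919 and 1681 UMIs, and 1.93% in control trabecular bone, at 3424 UMIs. Shares at or below these were not read as expression. The Mt1 UMIs of B cell-like cells were not spread evenly: in control trabecular bone cluster 20 held 45 of the 57, and 1 of its 77 cells held 17, and in GC callus the 20 cells of cluster 6 with the most held 79.2% of its 53.

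In callus, among named classes of at least 15 cells in both libraries, Mt1 was highest in plasma cell-, osteoclast- and chondrocyte-like cells and low in endothelial- and B cell-like cells. Units with fewer control cells were left out of this order, though some held Mt1 in GC. Cluster 21, led by Cxcl12, Cdh5 and Elane, held 1505 Mt1 UMIs in 101 GC cells. Cluster 22, led by Ngp, Camp and Ltf, held 310 in 94, and granulocyte-monocyte progenitor or promyelocyte-like cells 371 in 23. Plasma cells, which secrete antibody, had 1260.3 CPM in control and 2507 in GC, from 30 and 19 cells. Osteoclasts, which resorb bone, had 1030.5 CPM in control and 2078 in GC, and chondrocytes 1163 CPM in control and 1396 in GC. The order changed with GC: chondrocyte-like cells stood above osteoclast-like cells in control, with intervals apart, and below them in GC. Hypertrophic chondrocytes, the cartilage cells that prepare the matrix for bone, had 689 CPM in control and 1340.1 in GC, and bone-forming osteoblast- or osteocyte-like cells 580.2 CPM in control and 1253 in GC. Stromal or skeletal progenitor-like cells stood at 627 and 1104 CPM, and C1q macrophage-like cells at 421 and 822 CPM. In control the intervals of osteoblast- and stromal-like cells overlapped, as did those of stromal- and erythroid-like cells.

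Of 18 callus classes with enough UMIs and cells, the GC over control ratio of Mt1 had an interval above 1 in 12, chondrocyte-like cells among them, and an interval that holds 1 in 6. The share of all genes with an interval above 1 is not given here, so that this count is not set against other genes. By log2 difference, 27.2% of genes lay above Mt1 in mature neutrophil- and 16.2% in chondrocyte-like cells, against 0.374% in hypertrophic chondrocyte-like cells, all among the 12. In 4 classes Mt1 was past 2-fold higher on the log2(CPM + 5) scale. These were osteoblast- or osteocyte-like cells with a ratio of 2.16 (1.99 to 2.34), osteoclast-like cells with 2.02 (1.91 to 2.12), NK or innate lymphoid-like cells with 2.14 (1.56 to 2.97) and granule-gene neutrophil-like cells with 2.11 (1.33 to 3.43). In the same classes 1.07%, 0.733%, 0.961% and 8.78% of all genes were past 2-fold higher. None of these 4 calls held in every other setting, in which the log2 difference ranged from 0.71 to 1.30 in osteoblast-, 0.83 to 1.06 in osteoclast-, 0.99 to 1.60 in NK- and 0.80 to 2.14 in granule-gene neutrophil-like cells. Plasma cell-like cells came close with 1.99 (1.74 to 2.28), as did C1q macrophage-like cells with 1.95 (1.66 to 2.29) and hypertrophic chondrocyte-like cells with 1.95 (1.90 to 2.00). In control callus the thinned share of granule-gene neutrophil-like cells with Mt1, 6.61%, was below that of B cell-like cells. Stromal-like cells had a ratio of 1.76 (1.66 to 1.87), monocyte-like cells 1.73 (1.15 to 2.64) and cluster 5, led by Chil3, Cxcl3 and Msr1, 1.84 (1.66 to 2.04). The 6 whose interval held 1 were B cell-like cells at 0.811 (0.578 to 1.13), T cell-like cells at 0.968 (0.751 to 1.25), erythroid-like cells at 0.842 (0.670 to 1.05), cluster 19 at 0.803 (0.616 to 1.04), conventional dendritic-like cells at 1.13 (0.923 to 1.40) and endothelial-like cells at 1.53 (0.883 to 2.71).

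Chondrocyte markers, which are foreign to immune cells, were lower with GC in B cell-, T cell-, NK-, plasma cell-, osteoclast- and C1q macrophage-like cells. Their summed level was 2487 CPM in control and 577 in GC in osteoclast-like cells and 3932 and 1627 CPM in B cell-like cells. Mature neutrophil-like cells of callus stood at 161 and 200.4 CPM for Mt1, a ratio of 1.25 (1.06 to 1.47). In control 1328 of them were in cluster 0 and in GC 1095 were in cluster 1, so that the classes compared were held by different clusters. The Mt1 ratio was 0.795 (0.464 to 1.28) within cluster 0, with 111 GC cells. Within cluster 1, with 240 control cells, it was 1.60 (1.14 to 2.31).

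Chondrocyte-like cells held 76.3% of the Mt1 UMIs of control callus and 56.7% of those of GC callus, and the class did not hold the same kinds of cells in both. Cluster 4, with 1108 GC and 7 control cells and a median depth of 2500.5 UMIs in GC, was led by Tpbg, Tnn, Col1a2, Dcn and Col1a1 and had none of the 11 chondrocyte markers among its 10 leading genes, though all 11 passed in it. It stood at 709 CPM for Mt1 and 674 CPM for Mt2. With it the class ratio of Mt1 was 1.20 (1.18 to 1.22) and that of Mt2 1.18 (1.15 to 1.21), and without it they were 1.30 (1.28 to 1.32) and 1.07 (1.04 to 1.10). As a mean over cells the log2 difference of Mt1 over the whole class turned to -0.08, and with all cells thinned to 1000 UMIs to -0.02, so that no direction is given for Mt1 in the class. The clusters that both libraries filled are better compared by number. Mt1 had a ratio of 1.41 (1.38 to 1.43) in cluster 3, led by Ucma, Ecrg4 and C1qtnf3, 1.30 (1.27 to 1.34) in cluster 7, led by Ibsp, Cdkn1c and Hapln1, and 1.99 (1.92 to 2.06) in cluster 8, with Ibsp, Gm42679 and Col10a1 in the lead. For Mt2 the ratios were 1.12 (1.09 to 1.16), 1.33 (1.26 to 1.41) and 1.66 (1.55 to 1.79) in the same clusters.

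Of 13 callus classes with enough UMIs, the ratio of Mt2 had an interval above 1 in 7, an interval below 1 in 1 and an interval that holds 1 in 5. These counts, too, are not set against the share of all genes with such intervals. In 4 classes Mt2 was past 2-fold higher: plasma cell-like cells at 275 and 693 CPM with a ratio of 2.52 (1.91 to 3.33), osteoclast-like cells at 134 and 321 CPM with 2.39 (2.08 to 2.76), stromal-like cells at 244 and 563 CPM with 2.30 (2.10 to 2.53) and osteoblast- or osteocyte-like cells at 294 and 629.7 CPM with 2.14 (1.91 to 2.40). Among all genes of those classes 3.29%, 0.733%, 0.481% and 1.07% were past 2-fold higher. Over the other settings the log2 difference ranged from 1.03 to 1.40 in stromal-, 0.89 to 1.51 in plasma cell-, 0.79 to 1.30 in osteoclast- and 0.84 to 1.88 in osteoblast-like cells. Hypertrophic chondrocyte-like cells stood at 179 and 321 CPM, a ratio of 1.79 (1.70 to 1.89). C1q macrophage-like cells stood at 51.6 and 107 CPM with 2.08 (1.31 to 3.35). The interval held 1 in B cell-like cells at 1.53 (0.902 to 2.58), T cell-like cells at 1.36 (0.846 to 2.24), cluster 19 at 1.21 (0.672 to 2.15), mature neutrophil-like cells at 1.13 (0.774 to 1.63) and cluster 5 at 1.12 (0.735 to 1.70). The interval below 1 was that of erythroid-like cells, at 367 and 238 CPM with 0.649 (0.456 to 0.905), from 61 and 64 cells. Their Mt2 UMIs came almost wholly from cluster 30, with 186 UMIs in 24 control and 44 UMIs in 26 GC cells. Within cluster 30 Mt2 stood at 438 and 334 CPM, a ratio of 0.762 (0.535 to 1.06), with an interval that holds 1. With cells thinned to 1000 UMIs the log2 difference of the class was 0.99 in place of -0.61.

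**Figure D2:**
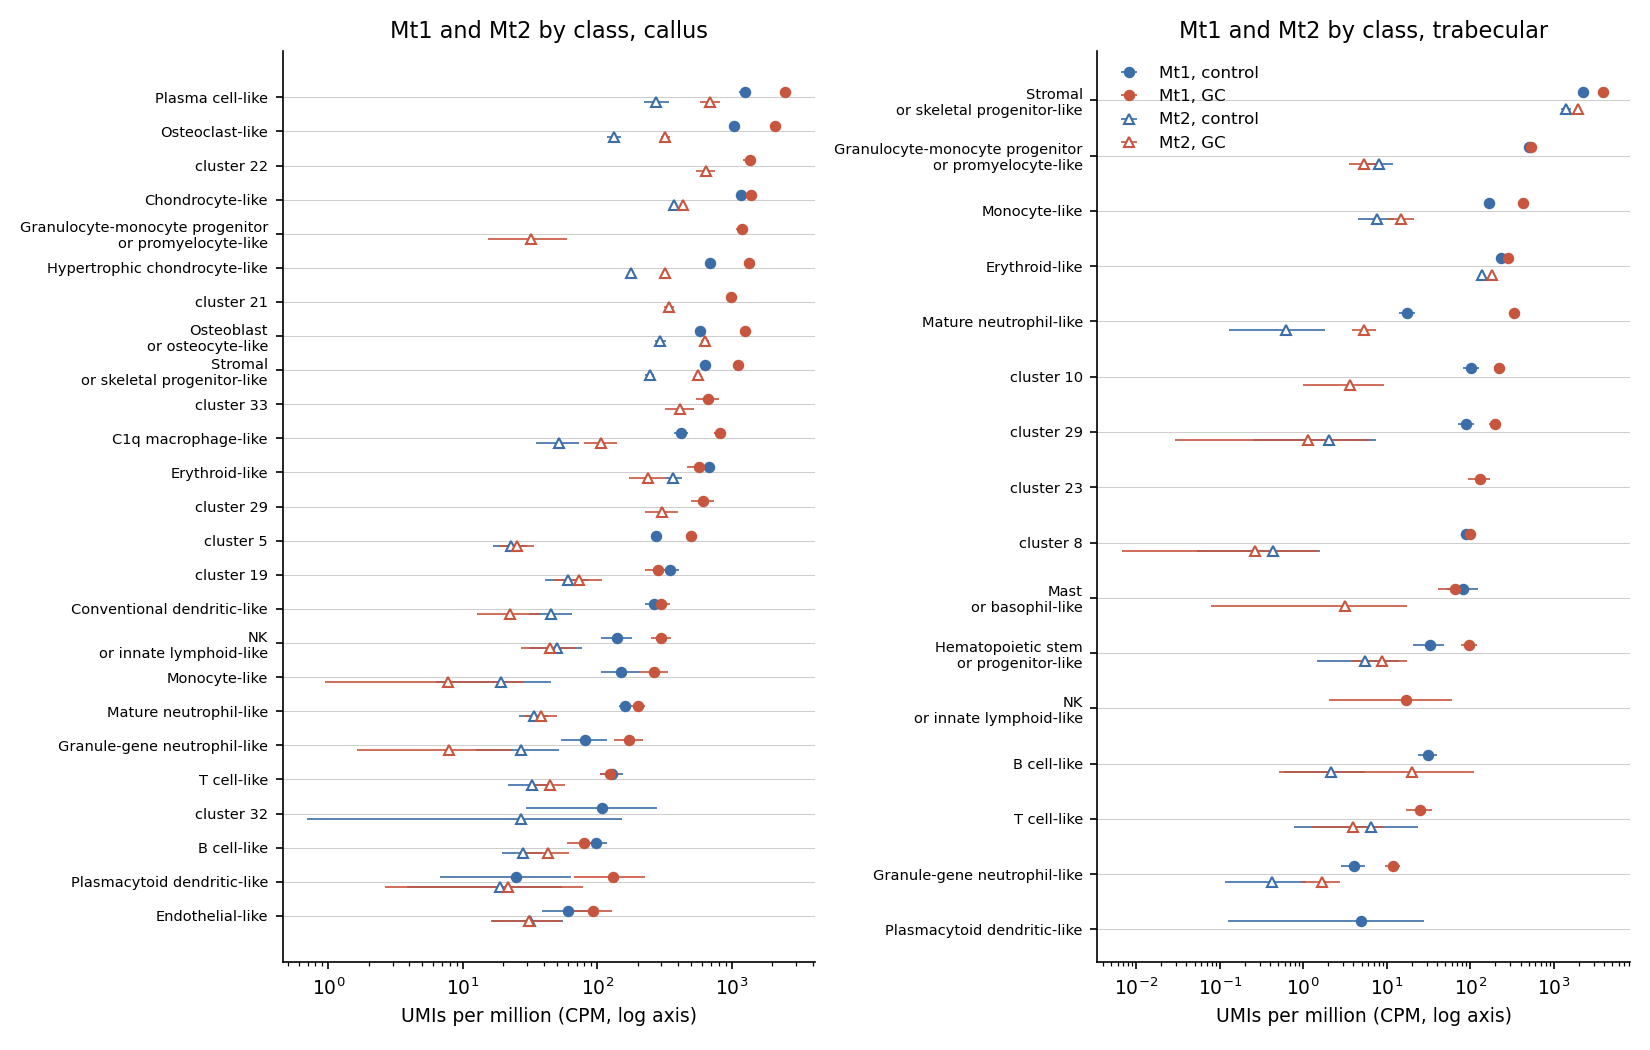
Mt1 (filled circles) and Mt2 (open triangles) by cell class in callus and in trabecular bone, in CPM on a log axis, blue for control and red for GC, with 95% counting intervals, for classes of at least 15 cells and values above 0. In callus most classes lie at 61.0 CPM or more for Mt1, while in trabecular bone Mt1 spans from 4.04 to 3917 CPM.

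In trabecular bone, Mt1 was highest in stromal-like cells, followed by granulocyte-monocyte progenitor or promyelocyte-like cells and, in GC, monocyte- and mature neutrophil-like cells. Stromal or skeletal progenitor-like cells had 2215 CPM in control and 3917 in GC, a ratio of 1.77 (1.55 to 2.03), but only 17 and 44 cells, and in control 195 of their 277 Mt1 UMIs came from 1 cell. Granulocyte-monocyte progenitor or promyelocyte-like cells, which make the granules of neutrophils, had 501 CPM in control and 536 in GC. They held 41.8% of the Mt1 UMIs of the control library and 28.0% of those of the GC library, and their level hardly differed between conditions, with a ratio of 1.07 (1.01 to 1.14). Granule-gene neutrophil-like cells, the next stage, were the lowest of the larger classes at 4.04 and 11.8 CPM, a ratio of 2.92 (2.00 to 4.36). After thinning, 6 of 1171 control and 14 of 1122 GC cells held an Mt1 UMI. Both shares lay below the 1.93% of B cell-like cells and were not read as expression. The class was also split by library, with 903 control and 93 GC cells in cluster 1 and 8 and 806 in cluster 2.

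Mature neutrophil-like cells showed the largest difference of Mt1 among all classes of both tissues. Mature neutrophils are short-lived cells that leave the marrow for the blood. Their Mt1 stood at 17.6 and 336 CPM in control and GC, from 85 and 2420 UMIs in 1088 and 1833 cells, a ratio of 19.1 (15.3 to 23.9), and 0.0748% of the 6686 genes of the class lay above it. After thinning, 1.68% of control and 10.7% of GC cells held an Mt1 UMI (4.14% and 16.3% before, at median depths of 4212 and 3546 UMIs). The control share lay below that of B cell-like cells and was not read as expression, and that of granule-gene neutrophil-like cells was lower still at 0.512%. In control 45 of the 1087 cells of cluster 0 held all of its 85 UMIs, and 1 cell held 12. The class held 2.15% of the Mt1 UMIs of control and 26.0% of those of GC trabecular bone.

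These cells fell into clusters nearly of 1 library each, and the Mt1 of the GC cells sat in 2 of them. Cluster 0 held 1087 of the control cells and stood at 17.6 CPM, and its 49 GC cells stood at 51.3 CPM. Cluster 3, of 740 GC cells, stood at 39.9 CPM, cluster 4, led by the inflammatory genes Cxcl3, Il1b and Cxcl2 and made of 553 GC cells and 1 control cell, at 973 CPM and cluster 6, of 491 GC cells, at 466 CPM. Between clusters 3 and 4 of the same library the Mt1 level thus differed more than between conditions in cluster 0. Cxcl3, Il1b and Cxcl2 were also among the 10 leading genes of cluster 0, and Cxcl3 among those of cluster 6. The thinned share of cells with Mt1 was 3.51% in cluster 3, 19.2% in cluster 4 and 13.1% in cluster 6. Within cluster 4 the UMIs were uneven: 142 of 553 cells held any, the highest cell held 56 and the 28 cells with the most held 57.6% of them. Without clusters 4 and 6 the ratio of the class was 2.31 (1.77 to 3.04), and with only the barcodes above the UMI cutoff of cell calling the log2 difference was 2.34 in place of 3.91. With a resolution of 0.5 for the clusters it was 4.72.

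**Figure D3:**
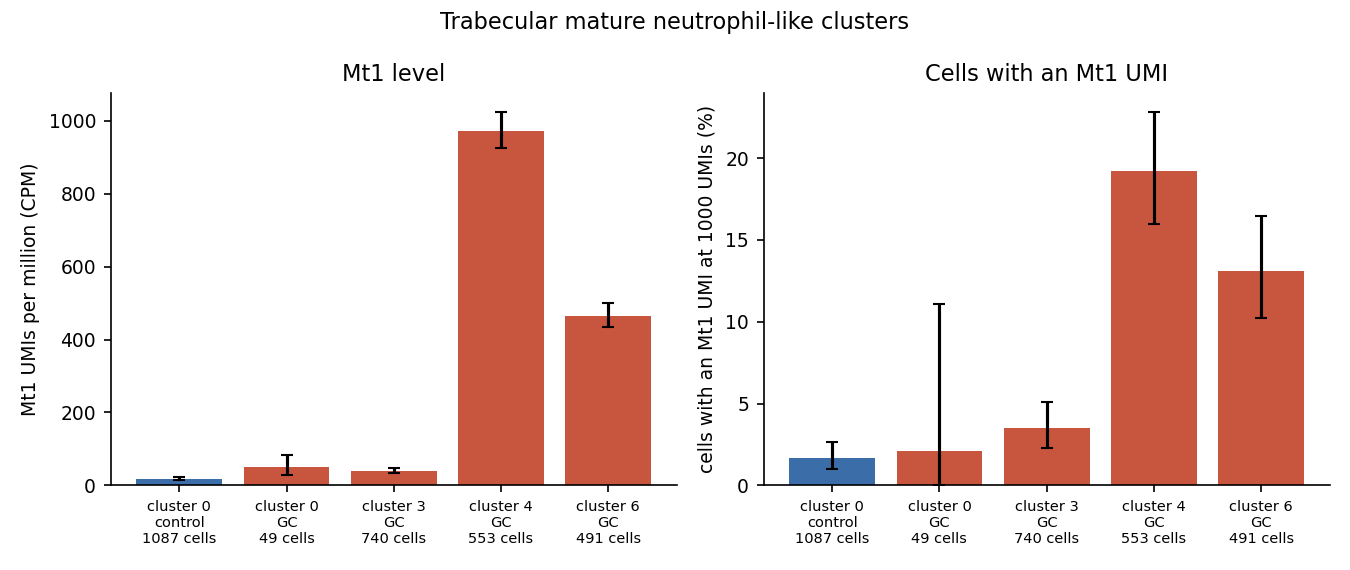
Mt1 in the clusters of trabecular mature neutrophil-like cells, on the left as CPM and on the right as the share of cells with an Mt1 UMI after thinning to 1000 UMIs, blue for control and red for GC cells, with 95% counting intervals. Clusters 4 and 6 of the GC library stand at 973 and 466 CPM, and the other bars at 51.3 CPM or below.

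Other measures also differed among these clusters, though not all in the order of Mt1. Median depth was 2586 UMIs in cluster 4 and 3114 in cluster 6, against 4859 in cluster 3 and 4212 in the control cells of cluster 0. The summed level of 13 dissociation stress genes was 12824 and 7388 CPM in clusters 4 and 6, against 4901 in cluster 3 and 7797 in the control cells. Tsc22d3 stood at 261, 269 and 244 CPM in clusters 3, 4 and 6, against 61.9 in the control cells, and so differed little among the GC clusters. Fkbp5 stood at 98.2, 163 and 149.9 CPM, against 10.6 in the control cells. The summed monocyte markers were 1196, 566 and 814 CPM in clusters 3, 4 and 6, against 351 in the control cells. Empty barcodes of the GC library stood at 456 CPM of Mt1, above the 336 CPM of the whole GC class and the 39.9 CPM of cluster 3 and below the 973 CPM of cluster 4. They held 232 Mt1 and 67 Mt2 UMIs, where the GC mature neutrophil-like cells held 2420 and 39. Granule-gene neutrophil-like cells of the same library held 11.8 CPM of Mt1. The part of depth, stress, other cells and free RNA in the Mt1 of clusters 4 and 6 was not tested.

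Past 2-fold higher in trabecular bone were also hematopoietic stem or progenitor-like cells, at 32.5 and 97.8 CPM with a ratio of 3.01 (1.90 to 4.94), and monocyte-like cells, at 169.9 and 429.7 CPM with 2.53 (2.25 to 2.85). So were clusters 10 and 29, divided from 1 cluster and both with Fn1, Ccr2 and Ms4a6c among their leading genes, with 2.15 (1.67 to 2.80) and 2.22 (1.70 to 2.90). The leading genes of cluster 29 also held Jchain and Igha, genes of plasma cells. The closest class of clusters 10 and 29 was monocyte, and cluster 28, divided from the same cluster, was in the monocyte-like class. These clusters and the monocyte-like class may thus not be separate kinds of cell in the count that follows. In all, Mt1 was past 2-fold higher in 5 of 11 classes, where 4.37% of all genes were so in mature neutrophil-, 0.311% in stem or progenitor-, 0.494% in monocyte-like cells, 0.318% in cluster 10 and 0.715% in cluster 29. B cell-like cells counted as past 2-fold lower, as did 36.1% of all genes in that class, which had 16 GC cells. These were all in cluster 16, and clusters 15 and 20 held 139 and 77 control cells and 0 GC cells. Monocyte-like cells had no such split by library, and 12.9% of control and 32.8% of GC cells held Mt1 after thinning. Stem or progenitor-like cells were few, and after thinning 1 of 39 control and 3 of 46 GC cells held Mt1. In GC 1 of these cells held 26 of their 88 Mt1 UMIs, and the 3 cells with the most held 52.3%. Over 14 other settings the log2 difference of monocyte-like cells stayed between 1.12 and 1.79, while the lowest values were 0.91 in stem or progenitor-like cells, 0.90 in cluster 10 and 0.995 in cluster 29, under 1 in each.

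Mt2 in trabecular bone sat in stromal- and erythroid-like cells. Stromal-like cells stood at 1407 and 1963 CPM, and erythroid-like cells at 139 and 183 CPM with a ratio of 1.32 (1.17 to 1.48). Within the red cell lineage most UMIs of both metallothioneins were in cluster 18, with 44 control and 42 GC cells, led by Car1, Mt2 itself and Car2 and low in hemoglobin. Mt1 stood there at 742 CPM in control and 1395 in GC, and Mt2 at 449.8 and 939 CPM. The ratios within it were 1.88 (1.71 to 2.07) for Mt1 and 2.09 (1.85 to 2.36) for Mt2, and in GC 1 of its cells held 280 of the 1022 Mt1 UMIs. Cluster 14, led by Rhd, Hemgn and Cldn13, with 81 control and 59 GC cells, went from 33.6 to 199.8 CPM for Mt1, a ratio of 5.95 (4.13 to 8.76), and from 14.1 to 94.1 CPM for Mt2, a ratio of 6.65 (3.8 to 12.3). The ratio of the whole class, 1.22 (1.11 to 1.34) for Mt1, thus lay below those of both clusters. Clusters 7 and 12, in which hemoglobin took most of the UMIs, stood between 1.85 and 12.1 CPM for Mt1. Hemoglobin genes took 369263 CPM in control and 593469 in GC of the whole class. With hemoglobin, mitochondrial and immunoglobulin UMIs left out of the totals, the log2 difference was 0.92 for Mt1 and 1.03 for Mt2, in place of 0.28 and 0.39, and as a mean over cells the difference of Mt1 turned to -0.25.

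The ratio of Mt1 to Mt2 was not the same in all cells. Over all cells, Mt1 UMIs per Mt2 UMI were 3.29 (3.24 to 3.33) in control callus, 3.41 (3.35 to 3.46) in GC callus, and in trabecular bone 5.51 (5.08 to 5.97) in control and 6.69 (6.32 to 7.08) with GC. Low ratios were found in callus osteoblast- or osteocyte-like cells, at 1.97 (1.76 to 2.21) in control and 1.99 (1.83 to 2.16) in GC, in trabecular erythroid-like cells, at 1.68 (1.5 to 1.89) and 1.56 (1.42 to 1.71), and in trabecular stromal-like cells, at 1.57 (1.30 to 1.91) and 2.00 (1.79 to 2.23). They were not the only ones: B cell-like cells of GC callus stood at 1.86 (1.16 to 3.03), from 54 and 29 UMIs, and cluster 22 of GC callus, led by Ngp, Camp and Ltf, at 2.14 (1.75 to 2.62). Hypertrophic chondrocyte-like cells stood higher, at 3.84 (3.68 to 4.02) and 4.17 (4.02 to 4.33). High ratios were found in some myeloid classes. Trabecular monocyte-like cells stood at 22.2 (13.9 to 37.9) and 28.7 (20.3 to 41.9), trabecular granulocyte-monocyte progenitor or promyelocyte-like cells at 61.3 (41.9 to 93.2) and 100.5 (68.4 to 154), and trabecular mature neutrophil-like cells of GC at 62.1 (45.3 to 87.5). Cluster 8 of trabecular bone, led by Camp, Ngp and Orm1, held 406 Mt1 and 2 Mt2 UMIs in control and 373 and 1 in GC. In callus, granulocyte-monocyte progenitor or promyelocyte-like cells of GC reached 37.1 (19.9 to 78.0) and cluster 5 12.0 (9.02 to 16.3) and 19.7 (14.7 to 27.2). Other myeloid classes lay lower, with 9.50 (3.42 to 36.6) and 7.0 (4.06 to 13) in trabecular granule-gene neutrophil-like cells and 7.69 (6.80 to 8.72) and 6.48 (5.96 to 7.04) in osteoclast-like cells. Mature neutrophil-like cells of callus stood at only 4.76 (3.67 to 6.25) and 5.26 (3.91 to 7.20). A high ratio was also found outside the myeloid classes. B cell-like cells of control trabecular bone stood at 14.25 (5.27 to 54.1), from 57 and 4 UMIs. In trabecular bone the intervals of the monocyte- and granulocyte-monocyte progenitor-like cells lay apart from those of the stromal- and erythroid-like cells. The ratio was lower with GC in callus stromal-like cells, 2.57 (2.34 to 2.81) and 1.96 (1.84 to 2.09). In chondrocyte-like cells it was 3.14 (3.09 to 3.19) in control and 3.20 (3.13 to 3.27) in GC with cluster 4, which stood at 1.05 (0.997 to 1.11), and without that cluster 3.14 (3.09 to 3.19) and 3.81 (3.72 to 3.90). Within cluster 3 it was 2.72 (2.67 to 2.78) and 3.41 (3.30 to 3.52).

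**Figure D4:**
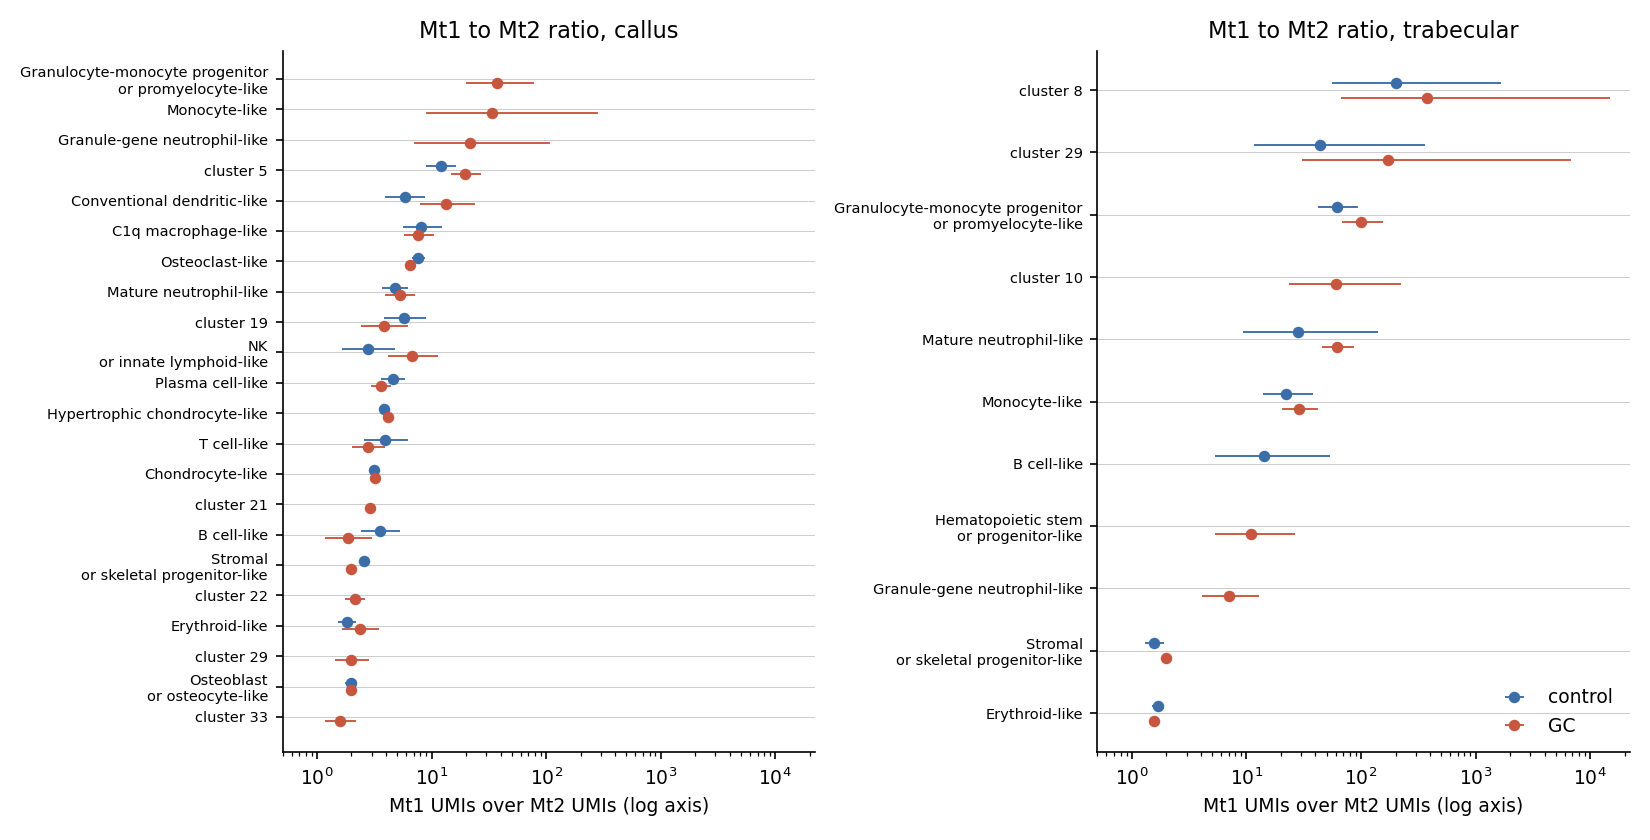
Mt1 UMIs over Mt2 UMIs by cell class, on a log axis, blue for control and red for GC, with 95% counting intervals, for classes with at least 50 UMIs of both genes together. Osteoblast-, stromal-, chondrocyte- and erythroid-like classes lie between 1.56 and 4.17, and monocyte-, granulocyte-monocyte progenitor- and mature neutrophil-like cells of trabecular bone at 22.2 or above.

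Among the transporters, Slc39a14 was highest in cartilage and bone cells of callus. Hypertrophic chondrocyte-like cells stood at 335 and 257 CPM in control and GC, chondrocyte-like cells at 304 and 243, osteoblast- or osteocyte-like cells at 282 and 205 and stromal-like cells at 184 and 202. In control the intervals of chondrocyte- and osteoblast-like cells overlapped, and those of hypertrophic chondrocyte- and chondrocyte-like cells did not. Osteoclast-like cells had 31.2 and 28.2 CPM, close to the 24.7 and 13.3 CPM of B cell-like cells. Cluster 5 stood at 173 and 146 CPM and conventional dendritic-like cells at 132 and 139, both above those B cells. Barcodes of control callus that held no cell stood higher, at 281 CPM (249 to 317) from 267 UMIs. The part of free RNA in the levels of these immune cells was not tested.

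With GC, Slc39a14 was lower in the cartilage and bone classes, by a ratio of 0.798 (0.775 to 0.822) in chondrocyte-, 0.766 (0.731 to 0.803) in hypertrophic chondrocyte- and 0.728 (0.625 to 0.848) in osteoblast- or osteocyte-like cells. Without cluster 4 the chondrocyte ratio was 0.816 (0.791 to 0.841). Cluster 5 was also lower with GC, with 0.844 (0.720 to 0.989), and the part of free RNA in that value was not tested. Stromal-like cells had 1.10 (0.969 to 1.25), conventional dendritic-like cells 1.05 (0.776 to 1.42), C1q macrophage-like cells 0.906 (0.591 to 1.38) and osteoclast-like cells 0.904 (0.623 to 1.31), with intervals that hold 1. Mature neutrophil-like cells of callus had 0.580 (0.399 to 0.828), where the summed chondrocyte markers also differed, at 4573 CPM in control and 2173 in GC, and the part of free cartilage RNA in that value was not tested. In trabecular bone Slc39a14 had enough UMIs in monocyte-like cells alone, at 26.8 and 25.4 CPM with a ratio of 0.95 (0.651 to 1.38). Stromal-like cells of GC trabecular bone had 52.4 CPM from 13 UMIs, below the stromal-like cells of callus.

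Slc30a1, the zinc exporter, was highest in C1q macrophage- and osteoclast-like cells and cluster 5 among the 7 callus classes with at least 50 of its UMIs. C1q macrophage-like cells stood at 43.3 and 88.6 CPM, osteoclast-like cells at 42.8 and 65.7 and cluster 5 at 34.2 and 78.2, and their control intervals overlapped. Chondrocyte-like cells stood at 13.1 and 18.2 CPM and hypertrophic chondrocyte-like cells at 9.30 and 21.3, and B cell-like cells had 20.0 and 20.6 CPM, so that the cartilage classes stood no higher than B cells in control. The ratio lay above 1 in all 7, by 2.29 (1.85 to 2.86) in hypertrophic chondrocyte-like cells, 2.29 (1.72 to 3.06) in cluster 5, 2.05 (1.23 to 3.47) in C1q macrophage-like cells, 1.54 (1.17 to 2.03) in osteoclast-like cells and 1.39 (1.24 to 1.57) in chondrocyte-like cells. Stromal-like cells had 1.35 (0.915 to 2.01), with an interval that holds 1. The minimum of 50 UMIs counts both libraries, so a class can pass it through its GC UMIs. C1q macrophage-like cells had 26 UMIs in control and 43 in GC. The share of all genes with a ratio above 1 is not given, so the count of 7 is not read as a result. Without cluster 4 the chondrocyte ratio was 1.25 (1.10 to 1.42), and within the class it was 0.956 (0.771 to 1.18) in cluster 3, 1.31 (1.01 to 1.70) in cluster 7 and 1.93 (1.46 to 2.57) in cluster 8. Past 2-fold on the log2(CPM + 5) scale were cluster 5 and mature neutrophil-like cells, in which 2.35% and 4.42% of all genes were past it. With a pseudocount of 20 CPM both fell short, at 0.86 and 0.89 on the log2 scale. Mature neutrophil-like cells had 13 UMIs in control and 40 in GC, 6.27 and 28.7 CPM with 4.58 (2.40 to 9.33), and their control level was the lowest of the 7. In trabecular bone monocyte-like cells stood at 34.8 and 30.4 CPM with 0.873 (0.623 to 1.22) and erythroid-like cells at 9.79 and 6.29 with 0.642 (0.369 to 1.11).

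Slc39a8 was low throughout, and its higher levels were in endothelial-, erythroid- and chondrocyte-like cells. Endothelial-like cells of callus stood at 15.9 and 31.1 CPM, from 6 and 12 UMIs, with overlapping intervals. Chondrocyte-like cells had 7.77 and 7.79 CPM, a ratio of 1.0 (0.843 to 1.19), and hypertrophic chondrocyte-like cells 8.94 and 6.10 CPM, a ratio of 0.682 (0.50 to 0.923). Erythroid-like cells of control callus had 14 UMIs and those of GC callus 1. B cell-like cells of callus held 0.798 and 2.95 CPM, from 1 and 2 UMIs. In trabecular bone erythroid-like cells were the highest at 24.9 and 14.5 CPM, with 84 and 60 UMIs. Their ratio, 0.582 (0.411 to 0.820), was close to the median of all genes in that class, -0.63 on the log2 scale against -0.62 for Slc39a8. Centred on that median it was 0.01, and with at least 500 genes per cell 0.07.

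**Figure D5:**
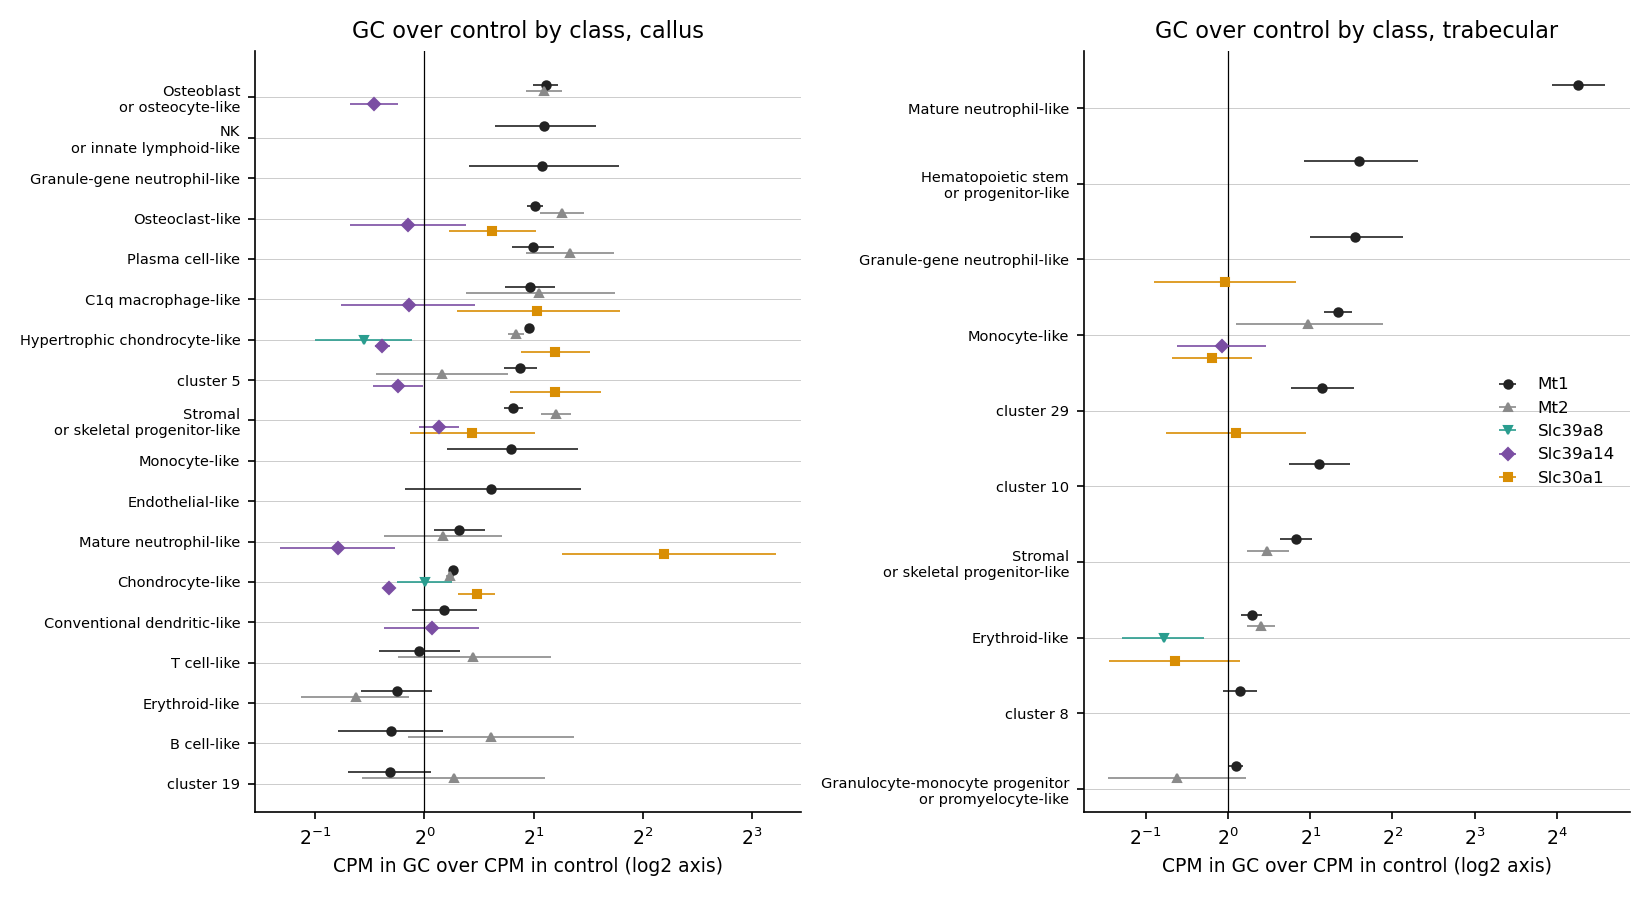
GC over control ratio of each member by cell class, on a log2 axis, with 95% counting intervals, for genes with at least 50 UMIs over both libraries of a class. Mt1 lies right of 1 in most classes of both tissues, Slc30a1 right of 1 in all 7 callus classes shown, and Slc39a14 left of 1 in the cartilage and bone classes, cluster 5 and mature neutrophil-like cells of callus. GC UMIs count toward the 50, so a class can be shown because of them.

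Among the other genes of zinc handling, the metallothionein Mt3 differed most in callus. Of 24 further metallothionein and zinc transporter genes, 18 had enough UMIs in callus and 13 of those were higher with GC, with a median log2 difference of 0.12 against 0.03 over all genes. Mt3 was the only gene of the list past 2-fold, at 6.81 and 24.2 CPM, with a ratio of 3.55 (3.21 to 3.93). Mt3 was a gene of osteoclast-like cells, at 223 and 595 CPM, with a ratio of 2.67 (2.40 to 2.97), in the class where Mt1 and Mt2 were also past 2-fold. Slc39a1 (ZIP1) stood at 33.8 and 46.6 CPM, with a ratio of 1.38 (1.31 to 1.46) in callus, and Slc39a11 at 15.1 and 12.0 CPM, with a ratio of 0.794 (0.721 to 0.874). The gene of the sensor, Mtf1, stood at 14.2 and 16.1 CPM, with a ratio of 1.13 (1.04 to 1.24), and in trabecular bone at 25.4 and 27.8 CPM, with a ratio of 1.09 (0.998 to 1.20). In trabecular bone 15 of the list had enough UMIs, 8 were higher with GC, 0 were past 2-fold, and the median was 0.00 against -0.03 over all genes. Slc30a7, which loads zinc into the secretory pathway, had the highest ratio there, at 7.04 and 9.73 CPM, with a ratio of 1.38 (1.17 to 1.64).

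Among 12 known glucocorticoid response genes, 0 of 12 were past 2-fold in callus, with a median log2 difference of 0.22 against 0.03 over all genes, and 4 of 11 were past 2-fold higher in trabecular bone, with a median of 0.41 against -0.03. Of all genes, 0.251% were past 2-fold higher and 0.284% lower in callus, and 0.471% were past 2-fold higher in trabecular bone. In trabecular mature neutrophil-like cells 5 of 11 were past 2-fold higher, as were 4.37% of all genes, with a median of 0.89 against 0.29 over all genes. In callus osteoblast-like cells 0 of 10 were so, with a median of 0.05 against 0.03. In osteoclast-like cells 0 of 8 were, with 0.43 against 0.04, and in stromal-like cells 0 of 10, with -0.29 against -0.03. Callus granule-gene neutrophil-like cells had 0 of 5, with -0.36 against 0.11, and NK-like cells 1 of 6 (0.961% of all genes), with -0.11 against -0.07. Trabecular monocyte-like cells had 2 of 10 (0.494%), with 0.47 against -0.01, and stem or progenitor-like cells 0 of 8. The 13 dissociation stress genes had medians of -0.28 in callus and -0.18 in trabecular bone, and 8 targets of the oxidative stress factor Nfe2l2 had 0.37 and -0.21. In callus osteoblast- or osteocyte-like cells, where both metallothioneins were past 2-fold higher, 3 of 5 Nfe2l2 targets were also past 2-fold higher, as were 1.07% of all genes there, with a median of 1.18 against 0.03. In osteoclast-like cells, where both metallothioneins were likewise past 2-fold higher, 0 of 6 targets were so, with a median of 0.08 against 0.04, and in stromal-like cells 0 of 6, with -0.25 against -0.03. In callus granule-gene neutrophil-like cells 2 of 5 targets were so, as were 8.78% of all genes, with a median of 0.93 against 0.11. In callus NK-like cells 0 of 2 were so, and in plasma cell-like cells 1 of 1, where 0.961% and 3.29% of all genes were.

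Across 73 profiles of a class in a library, the genes most like each member in level were found among 6088 genes by Pearson correlation of log2(CPM + 5), as a description of points that share libraries and depth. Mt1 was most like Hdlbp (r = 0.752), Atf5 (0.732), Gpx3 (0.709), Nupr1 (0.677) and Itgb5 (0.651), and its correlation with Mt2 was 0.770. Mt2 was most like the matrix genes Col1a2 (r = 0.830), Col5a1 (0.828), Col1a1 (0.822) and Dcn (0.821), and Arhgef12 (0.824). The profile of Slc39a14 came closest to those of Emp1 (r = 0.902), Errfi1 (0.881), P4ha1 (0.873), Sdc3 (0.872) and Tspan3 (0.866), and that of Slc39a8 to the endothelial genes Eng (r = 0.681), Egfl7 (0.639) and Plvap (0.610), with Slc43a3 (0.633) and Aqp1 (0.622). Slc30a1 was most like Kpna3 (r = 0.760), Sod1 (0.741), Arl5a (0.736), Scpep1 (0.731) and Nus1 (0.718). Between the members, the lowest correlation was that of the importers Slc39a8 and Slc39a14, at 0.137.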

How the data were processed

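Single-cell libraries were made from digested tissue with a 10x Genomics droplet kit, 1 library per tissue and condition. The authors deposited UMI counts per gene and barcode, not normalized, made with Cell Ranger on mm10. Their processing notes name Cell Ranger 5.0.1 and Seurat 3.2.0, and the file headers name Cell Ranger 4. The GC callus file lists 7762 barcodes of at least 500 UMIs, and the other 3 list all barcodes.

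Cells were called by a UMI cutoff (4699 to 7535 UMIs) plus a test of each barcode of at least 500 UMIs against empty barcodes (ranks 45001 to 90000, 10000 simulations, adjusted p at most 0.01). In GC callus every listed barcode was taken. Cells needed 200 genes and at most 10% mitochondrial UMIs, and 120 to 428 cells per library with the highest doublet scores were removed, at 0.8% per 1000 cells. Library totals were 41239842 to 95852254 UMIs. Both libraries of a tissue were clustered together (2000 variable genes, 30 components, 15 neighbours, Leiden resolution 1) with 62 genes held out, the members among them. Clusters were named when at least 3 markers of a class passed, by a rule set after the clusters were seen. The members, lists and markers were chosen with earlier results of these data known.

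Summed UMIs gave CPM with exact Poisson intervals, ratios with exact conditional intervals and shares with Clopper-Pearson intervals, at 95%. PCR duplicates are collapsed by UMIs, and all intervals cover counting error only. Ratios are given for at least 50 UMIs over both libraries and 15 cells in each, log2 differences use a pseudocount of 5 CPM, and a count of 0 allows up to 3 UMIs. No test between conditions was possible with 1 library each. The genes named are the members, genes of the fixed lists with at least 50 UMIs in a comparison, and the 5 genes most like each member in level (Pearson correlation over profiles of at least 15 cells, mean of at least 20 CPM). Leading genes name clusters only. The call of 2-fold differences was tested on simulated data: of genes made 4-fold different, 72.0% were called in callus (14964 genes) and 78.0% in trabecular bone (12095 genes), and 100% in both of those over 20 CPM, so that differences of members at lower levels can be missed. Python 3.11.15, numpy 2.4.6, scipy 1.17.1, scikit-learn 1.9.0, igraph 0.11.9 and leidenalg 0.10.2 were used.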

Additional observations from a re-analysis of the deposited data

Results flagged for a closer look

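Over the whole class, Mt2 in erythroid-like cells stood in opposite directions in the tissues. Its GC over control ratio was 0.649 in callus and 1.32 in trabecular bone. The median log2 difference of all genes in the class was below 0 in both, at -0.26 and -0.63, against -0.61 and 0.39 for Mt2. Within callus cluster 30, with almost all Mt2 UMIs of that class, the interval held 1, at 0.762 (0.535 to 1.06). Within trabecular clusters 18 and 14 the ratios were 2.09 and 6.65. The difference between the tissues was not tested, and neither direction of the whole class held in every setting. With cells thinned to 1000 UMIs the log2 difference of the class was 0.99 in callus and -0.04 in trabecular bone.

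Barcodes of the GC trabecular library that held no cell carried Mt1 at 456 CPM and Mt2 at 132 CPM, from 232 and 67 UMIs, above the 252 and 37.8 CPM of the called cells of that library and above the 92.4 and 25.8 CPM of empty barcodes in control trabecular bone, from 43 and 12 UMIs. The ratio of Mt1 to Mt2 UMIs was 6.69 over the called cells of that library. Granule-gene neutrophil-like cells of the library held 11.8 CPM of Mt1.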

How the results depend on the processing

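No paired analysis was possible because the labels give no replicate numbers and each condition has 1 library. Of 124 values over all cells under other settings, 94 moved by less than their counting interval, and 30 moved by more, and of 851 class values 714 moved by less and 137 by more. Of the values past 2-fold, 0 changed sign. Smaller values did in several classes. Slc30a1 changed sign in trabecular granule-gene neutrophil-like cells under 7 of 14 settings, and Mt1 in callus T cell-like cells under 5 of 13. In trabecular granulocyte-monocyte progenitor or promyelocyte-like cells Mt1 did so under 2 of 14, with a log2 range of -0.34 to 0.43. The counts of genes past 2-fold were the same without a minimum of UMIs, 38 and 43 in callus and 57 and 69 in trabecular bone. These counts, which are among the 94, could not have differed. Over all cells the pseudocount keeps any gene below that minimum short of 2-fold, so the equal counts say nothing about the minimum. All values below are log2 GC over control, and the cause of each shift was not tested. The main values were 0.38, 0.33, -0.07, -0.37 and 0.63 in callus and 1.07, 0.69, -0.11, 0.12 and -0.06 in trabecular bone, for Mt1, Mt2, Slc39a8, Slc39a14 and Slc30a1.

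As a mean over cells, callus Mt1 was 0.44, Mt2 0.77, Slc39a8 0.28, Slc39a14 -0.28 and Slc30a1 0.86, and trabecular Mt1 was 2.17 and Mt2 1.31. With cells thinned to 1000 UMIs, callus Mt1 was 0.49, Mt2 0.87, Slc39a8 0.18, Slc39a14 -0.31 and Slc30a1 0.88, and trabecular Mt1 was 2.21, Mt2 1.16, Slc39a14 0.36 and Slc30a1 -0.23. With only barcodes above the UMI cutoff, callus Mt1 was 0.44, Mt2 0.30 and Slc30a1 0.52, and trabecular Mt1 was 0.72. With a pseudocount of 20 CPM, callus Slc30a1 was 0.39, trabecular Mt1 0.98 and Mt2 0.48, and with 1 CPM callus Slc30a1 was 0.76. Centred on the median of all genes, callus Mt1 was 0.35 and Mt2 0.30, and with no doublets removed callus Mt1 was 0.41. Trabecular Mt1 was 1.12 with at least 500 genes per cell, 1.12 without hemoglobin, mitochondrial and immunoglobulin UMIs, and 0.70 without the named neutrophils, a setting chosen after seeing the data, as were the values without single clusters.

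With 1 library per condition, differences between mice, pools or digestions cannot be told apart from those of GC. No direction is given for Slc39a8 over all cells: its intervals held 1 in both tissues, and its callus value changed sign under 2 settings. Cluster splits by library (callus cluster 4, callus mature neutrophils, trabecular mature and granule-gene neutrophils, trabecular B cells) set how far class values of those cells can be compared.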
